A study of Homo sapiens with 20 samples.

Results

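The transcripts of the mitochondrial genome were followed across 10 conditions of LNCaP cells, an established androgen-dependent prostate cancer line. Members were all genes whose symbol begins with MT- in 2 deposited count tables, 37 of 57773 genes in each, comprising 13 mRNAs, 2 ribosomal RNAs (rRNAs) and 22 transfer RNAs (tRNAs). In the siRNA experiment, parental LNCaP cells received 20 nM of a non-target control pool (siNTC, n = 2) or of a pool against EHMT1 (siEHMT1, n = 2) for 2 days. EHMT1 is a histone H3 lysine 9 methyltransferase, also named GLP. In the second experiment, LNCaP cells carried a lentiviral, puromycin-selected, tetracycline-inducible EHMT1 open reading frame, either wild type (WT) or with a lysine-to-arginine change, K450R, K451R or both at once (K450RK451R). Each of these 4 stable lines was cultured for 2 days with vehicle (Veh) or with 0.25 µg/mL doxycycline (Dox), which switches the transgene on, and all of them kept their own EHMT1 gene. No line without the transgene was treated with Dox, so the drug and the transgene it induces cannot be told apart.

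The human mitochondrial genome is a small circle transcribed from both strands into long RNAs, from which the tRNAs are cut out, releasing the mRNAs and rRNAs that lie between them. Its mRNAs encode subunits of respiratory complexes I (the ND genes), III (CYB) and IV (the CO genes) and of ATP synthase (the ATP genes), and its rRNAs build the mitochondrial ribosome. Every protein that transcribes, processes or stabilises these RNAs comes from nuclear genes.

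EHMT1 itself moved with the labels. It was at 87.5 and 83.4 CPM (counts scaled to a common library size with edgeR's TMM factors) in siNTC cells and at 29.2 and 30.7 CPM in siEHMT1 cells, and in the stable lines it ranged from 71.5 to 88.6 CPM with Veh and from 661 to 840 CPM with Dox. Total counts ranged from 5593400 to 12438006 in the siRNA samples. In each stable-line condition the 2 deposited samples differed by no more than counting noise (chi-square per degree of freedom 0.995 to 1.02), so they were summed and counted as 1 sample, with totals of 8436791 to 12407739. Marker levels were scaled by total counts only, without TMM factors. All 9 luminal prostate markers were detected in every sample (164 to 8246 CPM). The basal markers KRT5 and TP63 and the leukocyte marker PTPRC had 0 counts throughout, the basal marker KRT14 was at 0.221 to 1.45 CPM (at most 18 counts), and the stromal genes VIM and COL1A1 reached 82.8 and 38.9 CPM. The siNTC 2 library stood apart. Of its counts, 10.0% lay on 2 pseudogenes that resemble cytoplasmic rRNA (AC010970.2 and CTD-2328D6.1), against 0.820% in siNTC 1, 1.00% and 0.0531% in siEHMT1 1 and 2, and 0.0313 to 0.0923% in the stable lines.

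The mitochondrial genes lie end to end, and some overlap, so the sequence limits what short reads can tell apart. Coordinates and sequences are those of GRCh37, chrM, a circle of 16569 bases. The 3 places where neighbouring mRNAs on one strand share bases follow, 5′ to 3′, with the shared bases in capitals. They show that a read there belongs to both genes, over 46 bases for MT-ATP8 and MT-ATP6, 7 bases for MT-ND4L and MT-ND4 and 1 base for MT-ATP6 and MT-CO3.
MT-ATP8/MT-ATP6 junction, chrM:8512-8587, plus strand: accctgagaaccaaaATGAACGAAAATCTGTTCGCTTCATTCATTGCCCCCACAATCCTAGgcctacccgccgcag
MT-ND4L/MT-ND4 junction, chrM:10745-10781, plus strand: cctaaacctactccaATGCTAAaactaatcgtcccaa
MT-ATP6/MT-CO3 junction, chrM:9192-9222, plus strand: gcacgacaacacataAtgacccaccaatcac

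Nuclear chromosomes also carry copies of mitochondrial DNA. Of the 16519 windows of 51 bases (the read length) along chrM, 3861 (23.4%) had an identical copy in a nuclear chromosome of GRCh37, and 2794 of these (72.4%) had one on chromosome 1. Among windows touching 1 gene only on its strand, the copied share was 0% for MT-ND3 and MT-ND4L, 1.40% for MT-CYB, 14.98% for MT-RNR2, 42.9% for MT-RNR1 and 53.0% for MT-CO1. The shares depended on where a gene lies, and they were highest among the mRNAs for MT-CO1. How reads with several matches were counted is not given in the sources used here. The levels per window below therefore divide a gene's counts by part of its windows. These touch no other gene on the same strand and have no nuclear copy, and genes on the other strand were disregarded.

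The tRNAs differ in how many such windows they have. In the next lines, capitals mark bases inside certain 51-base windows. These touch the tRNA but no other gene on its strand, and have no identical nuclear copy. MT-TL1 has 27 such windows, MT-TT 66, MT-TM 14 and MT-TK 0. A base is in capitals if any of these windows covers it, so capitals do not show how many windows there are.
MT-TL1 (leucine), chrM:3230-3304, plus strand: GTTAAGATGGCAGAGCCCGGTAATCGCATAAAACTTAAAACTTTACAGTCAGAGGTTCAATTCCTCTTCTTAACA
MT-TT (threonine), chrM:15888-15953, plus strand: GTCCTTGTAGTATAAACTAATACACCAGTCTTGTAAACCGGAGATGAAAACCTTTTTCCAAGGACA
MT-TM (methionine), chrM:4402-4469, plus strand: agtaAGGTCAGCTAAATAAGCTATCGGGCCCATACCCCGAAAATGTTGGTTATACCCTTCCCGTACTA
MT-TK (lysine), chrM:8295-8364, plus strand: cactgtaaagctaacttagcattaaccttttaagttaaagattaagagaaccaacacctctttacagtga

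Together the members took 22.3 to 28.2% of all counts in the siRNA samples and 8.04 to 14.4% in the stable-line conditions, nearly all of it rRNA. The 2 rRNAs held 21.9 and 24.4% of counts in siNTC 1 and 2 and 26.2 and 27.5% in siEHMT1 1 and 2. In the stable lines their share with Veh and Dox was 12.9 and 9.71% for WT, 12.0 and 13.6% for K450R, 14.3 and 10.3% for K451R, and 12.2 and 7.99% for K450RK451R. The rRNA share was thus at least 21.9% in every siRNA sample and at most 14.3% in every stable-line condition. These are shares of counts, and how much rRNA was lost in making each library was not measured.

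The 13 mRNAs together held 0.459 and 0.4998% of counts in siNTC cells and 0.598 and 0.616% in siEHMT1 cells. WT cells had 0.0740% with Veh and 0.0458% with Dox, K450R cells 0.0683 and 0.0865%, K451R cells 0.102 and 0.0624%, and K450RK451R cells 0.0746 and 0.0537%. The widest Wilson 95% interval of these shares, which covers counting error only, was 0.494 to 0.506%, in siNTC 2. There were 43.9 to 48.8 rRNA counts per mRNA count in the siRNA samples and 140.5 to 212 in the stable lines. Both shares were lower in the stable lines, the mRNA share more so, and the 2 experiments differ in cells, handling and libraries, which cannot be told apart.

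Among the mRNAs, the cytochrome c oxidase (complex IV) transcripts MT-CO1, MT-CO2 and MT-CO3 dominated, with 80.4 to 84.4% of mRNA counts in the siRNA samples and 80.8 to 86.8% in the stable lines. Their order differed. MT-CO3 held 39.2 to 43.7% and MT-CO1 29.4 to 31.9% of mRNA counts in the siRNA samples, whereas MT-CO1 held 39.6 to 45.7% and MT-CO3 28.4 to 33.1% in the stable lines. The ranges of these genes did not overlap within either experiment, and the order was the same in all 4 samples of the first and all 8 conditions of the second.

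Levels of different genes were compared per free 51-base window, with the samples of an experiment summed. These sums were not scaled for depth or number of samples, so they compare genes within an experiment and not the experiments. As a share of all counts, MT-RNR2 held 20.7 to 25.5% in the siRNA samples and 7.26 to 13.1% in the stable lines. MT-RNR2 (16S rRNA, chrM:1671-3229) had 6909 counts per window in the siRNA samples and 6613 in the stable lines, and MT-RNR1 (12S rRNA, chrM:648-1601) had 1091 and 1704. The complex IV mRNAs followed, at 169 and 34.5 for MT-CO3, 85.2 and 31.8 for MT-CO1 and 46.1 and 14.2 for MT-CO2. Both rRNAs stood above all mRNAs, and the 3 complex IV mRNAs above all other mRNAs, in 4 of 4 siRNA samples and 8 of 8 stable-line conditions. MT-ATP6 (11.4 and 1.62), MT-ND3 (8.87 and 2.11), MT-CYB (7.62 and 1.37) and MT-ND1 (7.47 and 1.56) followed in the siRNA samples. MT-ATP6 was above MT-ND3 in 4 of 4 siRNA samples and in 4 of 8 stable-line conditions, whereas MT-CYB was above MT-ND1 in 2 of 4 and 2 of 8. These neighbours in the order were thus not separated by the level per window. The order also depended on the divisor. Per kilobase of gene MT-CYB was above MT-ND1, at 7515 against 5311 counts in the siRNA samples and 1349 against 1111 in the stable lines. By the same measure MT-ATP6 was below MT-ND3, at 5210 against 7587 counts in the siRNA samples and 739 against 1806 in the stable lines.

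The complex I mRNAs MT-ND4, MT-ND4L, MT-ND5 and MT-ND2 had 5.49, 5.28, 2.97 and 2.68 counts per window in the siRNA samples and 2.15, 1.48, 1.03 and 0.71 in the stable lines. MT-ATP8, a short gene for an ATP synthase subunit, had 4.36 and 0.34. MT-ND6, the only mRNA encoded on the opposite strand, had 0.18 and 0.15, and was the lowest in 4 of 4 siRNA samples and in 6 of 8 stable-line conditions, MT-ATP8 being lower in the other 2. Counts assigned to neighbours on the genome could thus differ widely, as those of MT-ATP8 and MT-CO3 do on either side of MT-ATP6. Because MT-ATP8 shares 46 bases with MT-ATP6, its counts cannot be read as the level of a separate RNA.

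**Figure D1:**
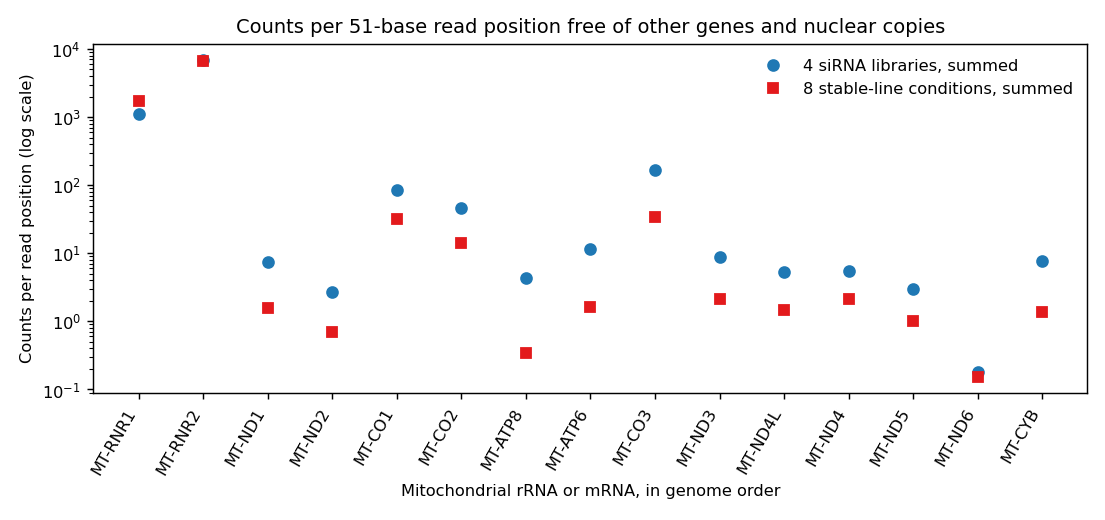
Counts per 51-base read position (log scale) of the 2 mitochondrial rRNAs and 13 mRNAs, in genome order. Positions that touch another gene on the same strand or have an identical nuclear copy were left out of the divisor. Circles sum the 4 siRNA samples and squares the 8 stable-line conditions, without scaling for depth, so circles and squares are not to be compared. MT-RNR2 stands highest at 6909 and 6613, and MT-ND6 lowest at 0.18 and 0.15 in these sums.

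The tRNAs were almost absent from the counts. All 22 together had 113 counts in the siRNA samples and 99 in the stable lines. MT-TL1, the tRNA that directly follows MT-RNR2, took 76 of the 113 (67.3%) and 21 of the 99 (21.2%), and was the only tRNA with a mean count of at least 10 in either experiment. The largest count of any other tRNA in a single sample was 4 in the siRNA experiment and 11 in the stable lines.

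Of the tRNAs, 12 had 0 counts in the siRNA samples and 9 did in the stable lines, with 7 at 0 in both. These 7 include MT-TK and MT-TN, the 2 tRNAs with no window free of same-strand neighbours and nuclear copies. MT-TT, whose 66 bases all lie in free windows, had 8 and 20 counts, and MT-TM had 1 and 3. The tRNAs are 59 to 75 bases long here, and MT-TL1 in the siRNA experiment was the only tRNA with enough counts to be tested. RNA was extracted with the RNeasy kit and made into total RNA libraries. Whether these steps kept RNAs this short was not tested, so the counts do not give tRNA levels in the cells.

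Silencing of EHMT1 was compared with siNTC for the 16 members that passed the filter on low counts, which were all mRNAs and rRNAs and MT-TL1. No member passed the test (edgeR's quasi-likelihood F test, Benjamini-Hochberg over 14532 genes). Over all genes, 0.131% were called (19 genes), 0.0619% higher and 0.0688% lower. DESeq2 and limma-voom also called 0 members, and 4 of the 16 had an unadjusted p under 0.05 in edgeR, where 9.58% of all genes did. The median log2 difference of the 13 mRNAs was 0.027, with 7 positive and 6 negative, beside -0.0021 over all genes, of which 49.6% were positive and 50.4% negative.

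MT-CO3 was at 1674 and 2190 CPM in siNTC cells and at 2495 and 2668 CPM in siEHMT1 cells. Both silenced samples lay above both controls, the controls lying further apart, and the log2 difference was 0.42 (SE 0.12, edgeR adjusted p = 0.229). MT-CO1 was at 1253 and 1661 CPM in siNTC and at 1875 and 1911 CPM in siEHMT1 cells. Its groups did not overlap either (log2 difference 0.38, SE 0.12, edgeR adjusted p = 0.272), whereas the third complex IV mRNA, MT-CO2, overlapped, at 508 and 582 against 597 and 556 CPM.

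Both of these values depended on which siNTC library was kept. Without siNTC 2, which carried the rRNA-like reads, the log2 difference was 0.62 for MT-CO3 (edgeR adjusted p = 0.00101), 0.59 for MT-CO1 (edgeR adjusted p = 0.00136) and 0.55 for MT-ND5 (edgeR adjusted p = 0.00790), and these 3 of 16 passed the test, against 0.249% of all genes. With siNTC 1 left out instead, the log2 difference was 0.24 for MT-CO3 (edgeR adjusted p = 0.600), 0.19 for MT-CO1 (edgeR adjusted p = 0.714) and 0.063 for MT-ND5 (edgeR adjusted p = 0.951), and 0 members passed, while 4 had an unadjusted p under 0.05 (9.32% of all genes). The part of the rRNA-like reads in these values was not tested.

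On the lower side, the complex I mRNA MT-ND3 was at 74.2 and 84.4 CPM in siNTC and at 72.3 and 57.0 CPM in siEHMT1 cells (log2 difference -0.29, SE 0.12, edgeR adjusted p = 0.421). Both silenced samples lay below both controls, by a small margin for siEHMT1 1. MT-ATP8, at 12.4 and 14.6 against 11.6 and 9.48 CPM, and MT-ND2, at 38.6 and 49.9 against 37.8 and 38.4 CPM, showed the same order without passing the test. The members whose groups did not overlap were thus 3 of 16 above siNTC (MT-CO1, MT-CO3 and MT-TL1) and 3 of 16 below, and over all genes 19.9% lay above and 19.8% below.

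MT-TL1 was at 1.32 and 1.38 CPM in siNTC and at 2.08 and 2.79 CPM in siEHMT1 cells (log2 difference 0.87, SE 0.43, edgeR adjusted p = 0.534), values that rest on 76 counts in all. Of the other mRNAs, MT-ND5 was at 102 and 142 CPM in siNTC and at 129 and 169 CPM in siEHMT1 cells. MT-CYB, MT-ND1, MT-ND4, MT-ND4L, MT-ATP6 and MT-ND6 had overlapping groups, with log2 differences of 0.088, 0.027, -0.13, 0.075, -0.22 and -0.21. The spread within a group was as large as the difference for each of these.

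The 12S rRNA MT-RNR1 was at 11000 and 13587 CPM in siNTC and at 12706 and 20320 CPM in siEHMT1 cells (log2 difference 0.43, SE 0.22, edgeR adjusted p = 0.549). MT-RNR2, the 16S rRNA, was at 192166 and 255559 CPM in siNTC and at 245704 and 252510 CPM in siEHMT1 cells (log2 difference 0.15, SE 0.55, edgeR adjusted p = 0.966). Groups overlapped for both. The siEHMT1 2 sample was the highest for MT-RNR1 but not for MT-RNR2, and without it the MT-RNR1 log2 difference was 0.050. It held 12.4 MT-RNR2 counts per MT-RNR1 count, against 17.5, 18.8 and 19.3 in the other 3 samples.

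**Figure D2:**
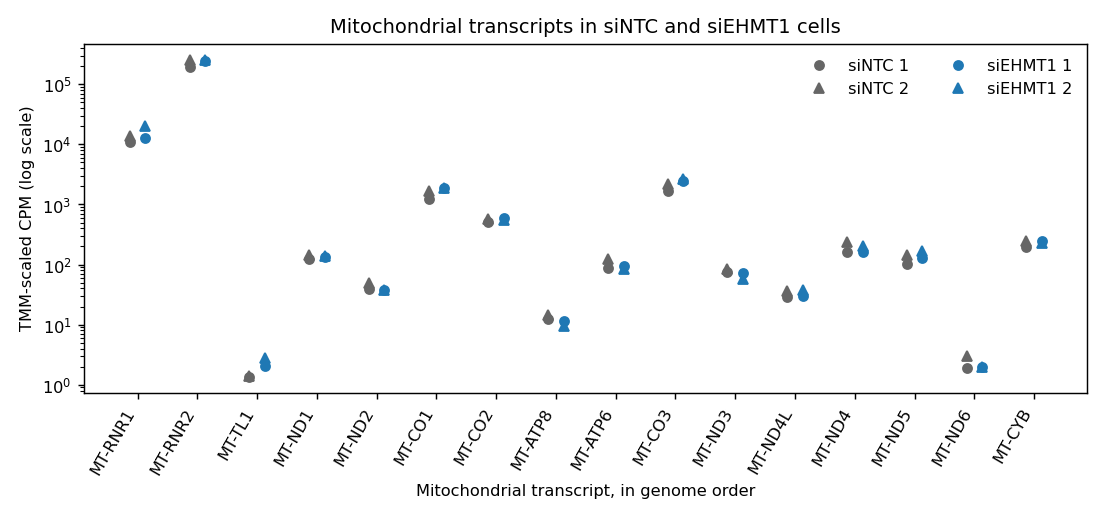
Levels of the 16 tested mitochondrial transcripts in TMM-scaled CPM (log scale), in genome order, with 1 point per sample (grey siNTC, blue siEHMT1; circles sample 1, triangles sample 2). Both siEHMT1 points lie above both siNTC points for MT-CO1, MT-CO3 and MT-TL1 and below them for MT-ND2, MT-ATP8 and MT-ND3; no transcript passed the test.

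Doxycycline was compared with vehicle over the 4 stable lines, with the line as a block, so that the test asks for a change that the lines share. Of 37 members, 13 passed the filter on low counts. MT-RNR1, MT-RNR2, MT-CO1 and MT-CO3 fell (4 of 13 tested), and none rose. Over all 14105 genes tested, 1.5% were called lower (211 genes) and 0.603% higher (85 genes), 2.1% in all. By total counts alone, without TMM factors, 108 genes were called lower and 323 higher, by upper-quartile scaling 182 and 116, and by DESeq2 with its size factors 114 and 23. The same 4 members were called lower by edgeR under both of these scalings, and DESeq2 called MT-RNR1 alone. The median log2 difference of the 11 mRNAs tested was -0.39, with 10 of 11 negative, beside 0.0050 over all genes, of which 48.8% were negative.

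MT-RNR1 was at 14126 CPM with Veh and 9542 with Dox for WT, 13196 and 11763 for K450R, 12413 and 7718 for K451R, and 12687 and 6647 for K450RK451R. Every line was lower with Dox and the 2 treatments did not overlap, with the smallest step in K450R. The log2 change was -0.59 (SE 0.076, edgeR adjusted p = 2.42e-05), the SD of the 4 lines' log2 ratios was 0.32, and the exact two-sided sign-flip test over the lines gave p = 0.125, the smallest that 4 lines allow. It was the only member lower in 4 of 4 lines (1 of 13, against 10.1% of all genes), and 0 of 13 were higher in 4 of 4 (10.7% of all genes).

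MT-RNR2 was at 120698 CPM with Veh and 89367 with Dox for WT, 111163 and 127418 for K450R, 134814 and 89568 for K451R, and 109518 and 66260 for K450RK451R. Here K450R went the other way, and its Dox value lay within the range of the Veh values. The log2 change over the lines was -0.39 (SE 0.095, edgeR adjusted p = 0.0247), with an SD of 0.41 between lines and an exact sign-flip p of 0.25. The call was lost without K451R (edgeR adjusted p = 0.208) and without K450RK451R (edgeR adjusted p = 0.421). There were more MT-RNR2 counts per MT-RNR1 count with Dox in 4 of 4 lines, 8.54 with Veh and 9.37 with Dox for WT, 8.42 and 10.8 for K450R, 10.9 and 11.6 for K451R, and 8.63 and 9.97 for K450RK451R.

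MT-CO1 was at 354 CPM with Veh and 192 with Dox for WT, 323 and 349 for K450R, 434 and 233 for K451R, and 299 and 198 for K450RK451R. The 3 lines other than K450R had their Dox values below every Veh value, while K450R with Dox lay among the Veh values. The log2 change was -0.57 (SE 0.095, edgeR adjusted p = 6.74e-04), with an SD of 0.47 between lines and an exact sign-flip p of 0.25.

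MT-CO3 was at 232 CPM with Veh and 152 with Dox for WT, 221 and 258 for K450R, 340 and 195 for K451R, and 213 and 153 for K450RK451R. The same 3 lines were lower with Dox and K450R was higher, and the highest Veh value, in K451R, stood apart from the others. The log2 change was -0.42 (SE 0.092, edgeR adjusted p = 0.0101), with an SD of 0.45 between lines and an exact sign-flip p of 0.25, and without K451R the call was lost (edgeR adjusted p = 0.111), while without K450R the change was -0.64.

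For these 4 members the lines thus differed from each other by about as much as the shared change, or more, in all but MT-RNR1. The fit without the line as a block called 0 members (4 genes in all), and 5 of 13 members then had an unadjusted p under 0.05, as did 10.4% of all genes.

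**Figure D3:**
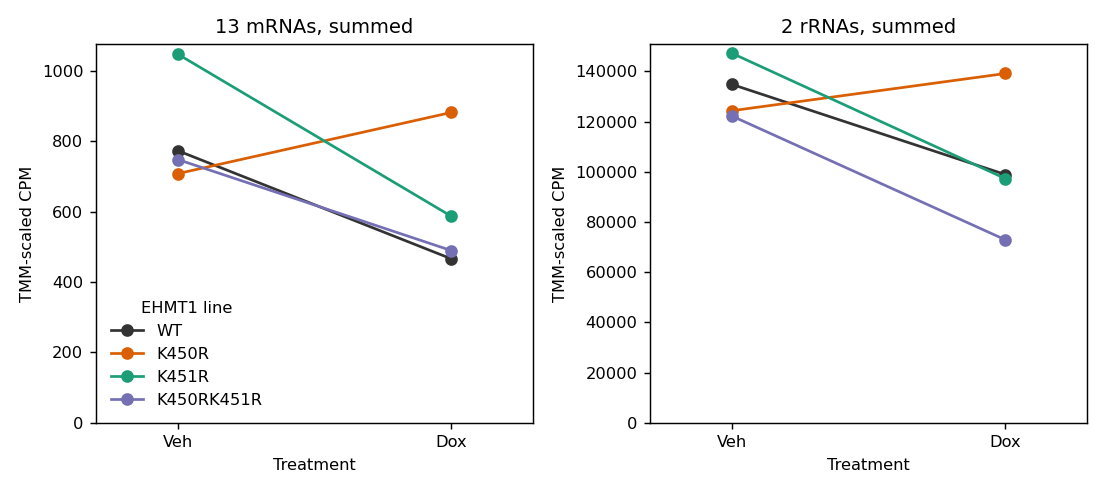
Summed levels of the 13 mitochondrial mRNAs (left) and the 2 rRNAs (right) in TMM-scaled CPM with vehicle (Veh) and doxycycline (Dox), 1 line per EHMT1 allele, with 1 summed sample per point. WT, K451R and K450RK451R slope down in both panels and K450R slopes up, from 709 to 882 CPM for the mRNAs and from 124359 to 139181 CPM for the rRNAs.

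Seen line by line, the 13 mRNAs summed to 774 CPM with Veh and 466 with Dox for WT, to 709 and 882 for K450R, to 1048 and 587 for K451R, and to 749 and 489.7 for K450RK451R. The log2 ratios of these sums were -0.73 for WT, 0.32 for K450R, -0.84 for K451R and -0.61 for K450RK451R. For the summed rRNAs they were -0.45, 0.16, -0.60 and -0.75 in the same order. K450R was the line whose summed mRNAs and summed rRNAs were both higher with Dox, although MT-RNR1 alone was lower there (13196 and 11763 CPM). With 1 sample per condition no line has a test of its own.

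Of the 13 mRNAs, 13 were higher with Dox in K450R, 4 in WT, 1 in K451R and 0 in K450RK451R. The 95% counting interval of the ratio lay above 0 for 10 of 13 in K450R (13.4% of all genes in that line), and below 0 for 7 of 13 in WT (11.9% of genes), 9 in K451R (15.4%) and 7 in K450RK451R (18.5%). The median log2 ratio of the mRNAs was -0.58 for WT, 0.75 for K450R, -0.84 for K451R and -0.77 for K450RK451R, and over all genes it was at most 0.0087 in size in each line. Of the 13 members tested, 10 were higher in K450R and lower in the other 3 lines, an order chosen after the values were seen and shown by 5.49% of all genes. Without K450R, 7 members fell, adding MT-CO2 (log2 change -0.84), MT-ND4 (-0.79) and MT-CYB (-0.78) to the 4, where 0.686% of all genes were called lower, and whether the lines differ in their response could not be tested with 1 sample per condition.

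Within the complex IV mRNAs, MT-CO2 was at 86.2 CPM with Veh and 46.4 with Dox for WT, 65.2 and 106 for K450R, 124 and 71.1 for K451R, and 96.0 and 53.5 for K450RK451R. It had the widest swing of the complex IV mRNAs between lines (SD of the log2 ratios 0.78) and did not pass the test over the 4 (log2 difference -0.47, SE 0.14, edgeR adjusted p = 0.0874).

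MT-CYB, the complex III member, was at 21.3 and 12.8 CPM with Veh and Dox for WT, 14.8 and 26.7 for K450R, 24.7 and 15.99 for K451R, and 24.4 and 12.3 for K450RK451R. MT-ATP6, of ATP synthase, was at 4.97 and 3.15, 4.68 and 12.7, 7.76 and 4.71, and 8.70 and 3.94 CPM in the same order. Neither passed the test, at edgeR adjusted p = 0.292 and 0.788, and in both K450R alone was higher with Dox.

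The complex I mRNAs were more mixed. MT-ND4 was at 32.9 and 22.0 CPM with Veh and Dox for WT, 28.5 and 50.8 for K450R, 44.99 and 24.3 for K451R, and 46.2 and 25.6 for K450RK451R, again higher with Dox in K450R alone. MT-ND5 was at 15.9 and 17.3, 23.9 and 35.5, 30.4 and 16.2, and 26.3 and 15.5 CPM, so that WT was slightly higher as well. The log2 differences over the lines were -0.38 for MT-ND4 (edgeR adjusted p = 0.249) and -0.25 for MT-ND5 (edgeR adjusted p = 0.504).

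MT-ND3 was the only tested mRNA with a positive difference over the lines (log2 difference 0.41, SE 0.21, edgeR adjusted p = 0.386). The difference was 0.11 without K450R and 0.74 without K450RK451R. MT-ND3 was at 4.38 CPM with Veh and 4.72 with Dox for WT, 3.44 and 10.9 for K450R, 7.03 and 10.1 for K451R, and 10.4 and 8.96 for K450RK451R. The K450R ratio was the largest (log2 1.66), and K450RK451R was the line that was lower with Dox. MT-ND3 has no window with a nuclear copy, and its largest count in these conditions was 124. It made up 0.486 to 1.83% of mRNA counts in the stable lines and 0.934 to 1.74% in the siRNA samples.

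The other complex I mRNAs MT-ND1, MT-ND2 and MT-ND4L had log2 differences of -0.39, -0.13 and -0.51 over the lines, each lower in 3 of 4 lines, and none passed the test. MT-ATP8 (34 counts over the 8 conditions) and MT-ND6 (65 counts) were below the filter. MT-ATP8 had 1 to 15 counts in a condition and MT-ND6 had 5 to 14, and each was higher with Dox in WT and K450R and lower in the other lines. These differences were within counting error for MT-ND6 in every line and for MT-ATP8 in every line but K450R, where 3 counts with Veh stood against 15 with Dox.

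**Figure D4:**
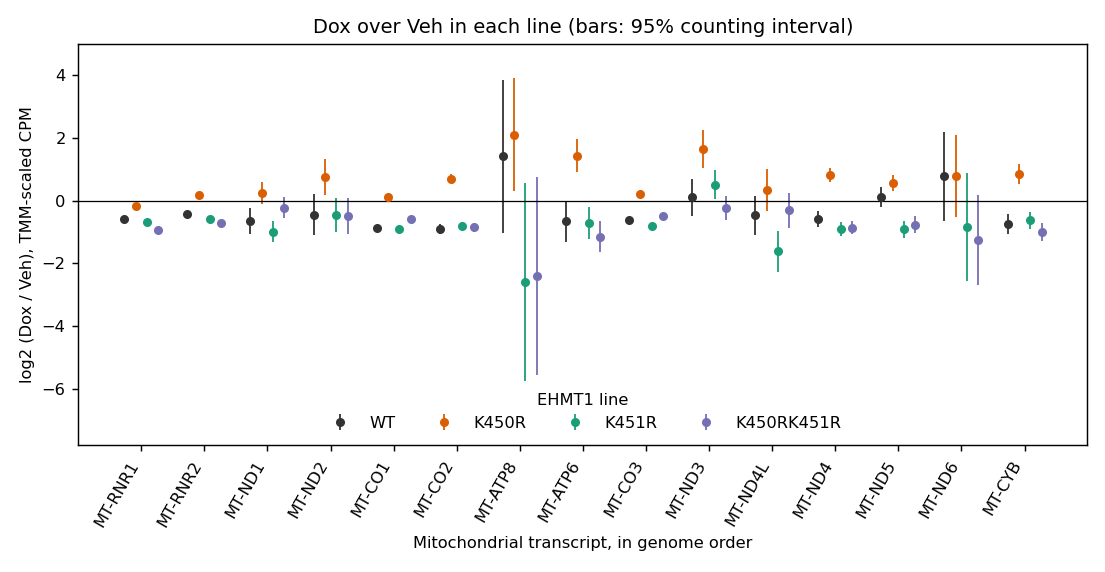
Log2 ratio of TMM-scaled CPM with Dox over Veh in each of the 4 stable lines (colours) for the 2 rRNAs and 13 mRNAs in genome order, with 95% counting intervals as bars. K450R points lie above 0 for all 13 mRNAs, from 0.11 for MT-CO1 to 2.11 for MT-ATP8, and K450RK451R points lie below 0 for all 13.

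The rRNA-like pseudogenes were examined beside these values. Across the stable lines CTD-2328D6.1 rose with Dox (log2 change 0.95, SE 0.21, edgeR adjusted p = 0.0113), while AC010970.2, the other rRNA-like gene, had a log2 difference of -0.18 (edgeR adjusted p = 0.319). Their summed share of counts with Veh and Dox was 0.0432 and 0.0609% for WT and 0.0313 and 0.0923% for K450R. It was 0.0547 and 0.0637% for K451R, and 0.0508 and 0.0435% for K450RK451R. The lowest and the highest of these shares were thus both in K450R. The part of the rRNA-like reads in the K450R values was not tested. With the rRNA-like pseudogenes and all members left out of the library sizes and scaling, the same number of members, 4, was called lower.

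Counts on nuclear rows that resemble mitochondrial genes were few. There were 188 such rows, of which 32 had any count, with 881 counts in the siRNA samples and 851 in the stable lines. Of these, 782 and 788 lay on the 13 MTRNR2L genes, nuclear genes that resemble MT-RNR2. The 5 rows with the most counts were MTRNR2L12 (322 and 356 counts), MTRNR2L2 (246 and 213), MTRNR2L8 (47 and 73), MTND4P12 (76 and 28) and MTRNR2L6 (52 and 42). Against them, MT-RNR2 had 8864555 and 8483940 counts. If reads with several matches were dropped, identical stretches leave no counts on either side. Since that handling is not given, the few counts on nuclear rows do not measure how many reads the copies share with members.

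Few of the nuclear genes listed for mitochondrial gene expression passed the test. The list held 9 genes for transcription, 19 for RNA processing and decay, 8 for genome maintenance and 7 regulators of nuclear genes. Of these, 0 of 43 tested were called after silencing of EHMT1 by edgeR, DESeq2 or limma-voom, against 0.131% of all genes called in edgeR. An unadjusted p under 0.05 was found in edgeR for 4 of the 43, about the share of all genes (9.58%), and the median log2 difference was -0.017 with 19 positive. With Dox, 2 of 41 tested rose and none fell, against 0.603% of all genes called higher, and the median log2 difference was 0.035 with 24 positive.

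PPRC1, a coactivator related to PGC-1 that acts on nuclear genes for mitochondrial proteins, was at 5.81 CPM with Veh and 8.10 with Dox for WT, 7.997 and 11.7 for K450R, 8.85 and 18.8 for K451R, and 9.61 and 18.2 for K450RK451R. It was higher with Dox in 4 of 4 lines, K450R included (log2 change 0.80, SE 0.15, edgeR adjusted p = 0.00276, and 0.0709 in edgeR without K451R). PTCD1, a pentatricopeptide protein of mitochondrial RNA metabolism whose counts are uncertain because it overlaps the readthrough gene ATP5J2-PTCD1, was at 2.02 and 4.27, 2.83 and 4.90, 3.03 and 4.63, and 2.83 and 6.72 CPM in the same order. It too was higher in 4 of 4 (log2 change 0.95, SE 0.24, edgeR adjusted p = 0.0347), and leaving out any 1 line ended its call, with edgeR adjusted p from 0.0602 to 0.206.

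The core machinery did not pass the test in either comparison. POLRMT, the mitochondrial RNA polymerase, averaged 29.9 ± 4.05 CPM with Veh and 30.7 ± 1.03 CPM with Dox (SD, n = 4), and TFAM, which binds and packages the mitochondrial genome and helps start transcription, averaged 39.5 ± 1.35 and 37.6 ± 4.59 CPM. LRPPRC and SLIRP, partners that stabilise mitochondrial mRNAs, averaged 215 ± 13.7 and 203 ± 8.38 CPM, and 62.8 ± 3.83 and 58.5 ± 1.34 CPM. ELAC2, which cuts the 3′ ends of tRNAs, averaged 50.99 ± 6.22 and 55.2 ± 3.22 CPM. After silencing, LRPPRC was at 219 and 228 CPM against 246 and 295 CPM in siNTC (log2 difference -0.28, SE 0.096, edgeR adjusted p = 0.321), without overlap between the groups. The log2 differences of the other 4 after silencing were 0.090 for POLRMT, -0.097 for TFAM, 0.11 for SLIRP and -0.017 for ELAC2.

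**Figure D5:**
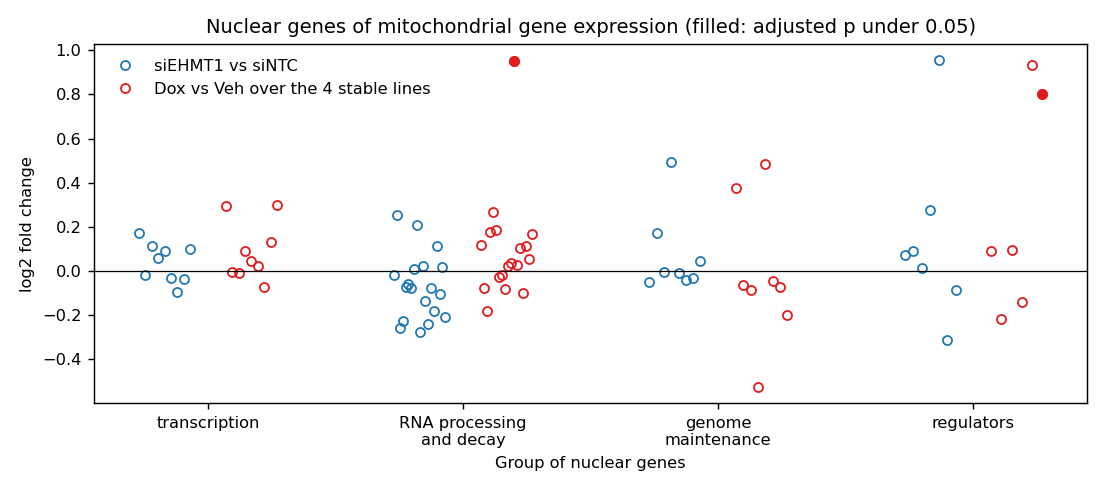
Log2 differences of the tested nuclear genes of mitochondrial gene expression, in 4 groups by role (x axis), after silencing of EHMT1 (blue) and with Dox over the 4 stable lines (red), with filled points where edgeR's adjusted p was under 0.05. The 2 filled points are PTCD1 (0.95) and PPRC1 (0.80), both with Dox.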

How the data were processed

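The authors deposited raw read counts per Ensembl gene in 2 tables, which hold the siRNA experiment and the inducible EHMT1 experiment. The libraries were made with a stranded total RNA kit and sequenced as 51-base single-end reads. How much of each rRNA was lost in making a library was not measured, so counts of MT-RNR1 and MT-RNR2 may not follow their levels in the cells. MT-RNR2 counts per MT-RNR1 count were 12.4 to 19.3 in the siRNA samples and 8.42 to 11.6 in the stable lines, and the part of library preparation in this was not tested. The submitters' processing notes name FastQC 0.11.9, STAR 2.7.2 and featureCounts 1.6.4 and the builds hg19 and GRCh37; the annotation release, strand setting, handling of multi-mapping reads and the mitochondrial sequence used are not given in the sources used here, so reads from overlapping or antisense genes may not be told apart. Control columns were matched to siNTC although they are spelled siNCT.

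From the deposited counts, edgeR 4.0.16 (R 4.3.3) fitted the quasi-likelihood test with TMM scaling and its expression filter over all genes, with Benjamini-Hochberg adjustment and calls at 0.05. Stable-line conditions were summed, since their samples agree within sampling noise, and tested with the line as a block; the lines carry different alleles, and within a line ratios have counting intervals only. The labels do not say whether samples came from separate cultures, so the spread between these samples may be technical. The edgeR p-values rest on a spread estimated with the help of other genes, not on a gene's own samples alone. With Dox, the SD between lines was 0.41 for MT-RNR2, 0.47 for MT-CO1 and 0.45 for MT-CO3. Their exact sign-flip p over the lines was 0.25 each, while edgeR called all of them. Alternatives used limma 3.58.1, DESeq2 1.42.0, other scalings and filters, other blocks and each sample or line left out. The fits were tested on simulated data without an outlying library such as siNTC 2. The simulation gave every gene the same dispersion and every line the same response to Dox. The siRNA fit recovered 36.5% of 1.5-fold and 83.9% of 2-fold changes, and the Dox fit 75.3% and 96.6%. Changes of about 1.5-fold after silencing could thus be missed. Because the members' responses differed between lines, these rates do not say how often a change in a member would be found. The tools pysam 0.24.0 and Python 3.11.15 served for the sequences, with gene positions from GENCODE for GRCh37.

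All mRNAs and rRNAs were named, tRNAs with a mean count of at least 10, the 4 tRNAs whose sequences are shown, and 5 preset nuclear genes with any other called gene of a 43-gene list. The members and lists were chosen with earlier results of these data known. Same-numbered samples did not deviate together (r = -0.0052 in the siRNA samples and -0.0010 to 0.035 in the lines), so the numbers were not treated as pairs. Samples of other treatments in the study were not analysed here.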

Additional observations from a re-analysis of the deposited data

Results flagged for a closer look

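Within their groups of 4, 4 values stood apart, the gap to the nearest sample being most of the group's range. These were MT-CO3 in K451R with Veh (340 CPM) and, with Dox, MT-ATP6 (12.7 CPM), MT-ND4 (50.8 CPM) and MT-ND5 (35.5 CPM) in K450R. They were 4 of 34 groups of 4 examined, and chance alone picks out about 1 in 20 groups. The 3 with Dox were all in K450R.

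In K450R the log2 ratio of Dox over Veh had the opposite sign to that in WT for the summed mRNAs (0.32), the summed rRNAs (0.16), MT-RNR2 (0.20), MT-CO1 (0.11) and MT-CO3 (0.22). With 1 sample per condition the difference between K450R and WT was not tested.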

How the results depend on the processing

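Without a filter 12 genes were called after silencing (19 with it), and without 1 sample 38 to 111; members called without 1 sample numbered 0 to 3. The block on the replicate number gave 127 genes and 2 members, MT-CO1 (log2 0.39, edgeR adjusted p = 0.0388) and MT-CO3 (0.43, edgeR adjusted p = 0.0268); the samples share only a number. The split of genes higher and lower was 9 and 10, by total counts 15 and 7, and by upper quartile 9 and 6. With Dox 296 genes and 4 members were called, by DESeq2 137 and 1, without the line block 4 and 0, with 16 separate samples 2005 and 6, with these and a replicate block 1897 and 6, and without 1 line 114 to 501 and 2 to 7. The median of the mRNAs without 1 line ranged from -0.75 (without K450R) to -0.17 (without K451R), and without 1 siRNA sample from -0.10 to 0.16. The causes were not tested. Leaving out 1 sample turned the sign of single log2 differences that had not passed the test. With Dox this was MT-ATP6 (-0.87 to 0.13). After silencing it was MT-ATP6 (-0.44 to 0.020), MT-CO2 (-0.015 to 0.18), MT-CYB (-0.055 to 0.24), MT-ND1 (-0.081 to 0.14), MT-ND4 (-0.37 to 0.16), MT-ND4L (-0.10 to 0.26), MT-ND6 (-0.57 to 0.074) and MT-RNR2 (-0.038 to 0.37). Without 1 sample MT-RNR1 ranged from 0.050 to 0.72 and MT-ND3 from -0.48 to -0.13 after silencing, and MT-ND3 from 0.11 to 0.74 with Dox. Within lines every summed ratio kept its sign. By total counts the summed mRNA ratio was -0.48 in K450RK451R and -0.71 in K451R. The summed rRNA ratio by total counts was -0.61 in K450RK451R, 0.19 in K450R, -0.47 in K451R and -0.41 in WT, and by upper quartile -0.73, 0.18, -0.59 and -0.43. In K450R it was 0.16 with the members and rRNA-like genes left out of the scaling and 0.16 in its first samples alone. tRNA counts were too few to compare conditions.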
